A study of Mus musculus with 6 samples.

Results

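The genes described here are the well-counted long noncoding RNAs of mouse splenic B cells, RNAs that the annotation lists as noncoding transcripts and not as precursors of single microRNAs or as small nucleolar RNAs (snoRNAs). They were taken from the count table as the genes whose rows were all typed as noncoding RNA, of which at least 1 row carried a curated RefSeq noncoding accession, and whose count averaged at least 100 over the 6 libraries. This gave 124 genes of 3369 noncoding genes of the same kind and of 46316 gene symbols in all, and all 124 were among the 13863 genes tested. The members were chosen by their mean count over both groups, which is therefore no result. The members nearest the minimum were A530040E14Rik and Foxd2os, each at a mean count of 101, and the nearest genes left out were 2810013P06Rik at 99.7 and Gm10505 at 99.0.

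Naive B cells from the spleens of WT mice were cultured for 2 days with anti-CD40 antibody at 500 ng/mL and IL-4 at 5 ng/mL, conditions under which B cells proliferate and switch to IgE. The tested samples also received 0.8 nM bryostatin 1, a macrolide that activates protein kinase C, and the study asked how this changed gene expression. The groups were IL-4 + bryostatin 1 (n = 3) and IL-4 (n = 3), and both contained anti-CD40. The labels leave unsaid whether samples within a group are separate mice, separate cultures or repeats of one preparation, and the p-values below cover only the variation among the samples at hand.

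Most long noncoding RNAs are transcribed and processed like messenger RNAs, and most are not known to act through a protein. Some stay in the nucleus, where they coat a chromosome, as Xist does on the inactive X, or hold together a nuclear body, as Neat1 does in paraspeckles. Others serve mainly as carriers: their introns release snoRNAs, which guide the chemical modification of ribosomal RNA, or their transcripts are cut into microRNAs. A few are short structured RNAs that are the catalytic or scaffolding part of an enzyme complex.

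Counts over the rows used, 1 row for each gene, summed to between 19959971 and 24896427 per library with bryostatin 1 and to between 20564293 and 22219354 with IL-4 alone. The 124 noncoding RNAs took 0.458% to 0.489% of them with bryostatin 1 and 0.457% to 0.495% with IL-4 alone. Values below are CPM, each count scaled to the effective size of its library, which are not divided by transcript length, so that levels of different genes are not compared. The 6 B cell markers checked were counted in every library and summed to between 4794 and 5113 CPM with bryostatin 1 and to between 5604 and 5860 CPM with IL-4 alone, of which 1 was called higher and 4 lower. The 5 T cell markers summed to between 0.499 and 0.789 CPM with bryostatin 1 and to between 0.142 and 0.274 CPM with IL-4 alone, and none of the 5 was at 0 in every library. The 5 myeloid markers summed to 2.22 to 3.28 CPM with bryostatin 1 and 1.64 to 3.94 CPM with IL-4 alone. The sums were 0.323 to 0.908 against 0.142 to 0.365 CPM for 4 NK cell markers. For 4 red blood cell markers they were 0.150 to 0.323 against 0 to 0.243 CPM. The part of such differences in the values below was not tested. In bulk samples of this kind, fewer cells of a type and less RNA per cell cannot be told apart.

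Noncoding RNAs changed in both directions. Of the 124, 38 were called higher and 44 lower with bryostatin 1, and 42 did not pass the test (edgeR quasi-likelihood test, Benjamini-Hochberg adjusted p under 0.05 over all genes tested). These 82 calls were 66.1% of the members, against 58.1% of all genes tested and 64.8% of the 10227 tested genes with a mean of at least 100 counts. By direction, 30.1% of all genes tested were called higher and 28.0% lower. The median log2 fold change of the members was -0.02, beside 0.00 over all genes tested. In 87 members the values of the groups did not overlap, against 63.5% of all genes tested and 69.5% of those with a mean of at least 100 counts. An exact permutation test of 3 against 3 samples cannot give a p below 0.1 for a single gene, which is the value of each such member. Changes past 1 on the log2 scale were found in 6 members that rose and 7 that fell, and 10.6% of all genes tested and 6.57% of those with a mean of at least 100 counts passed that limit.

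**Figure D1:**
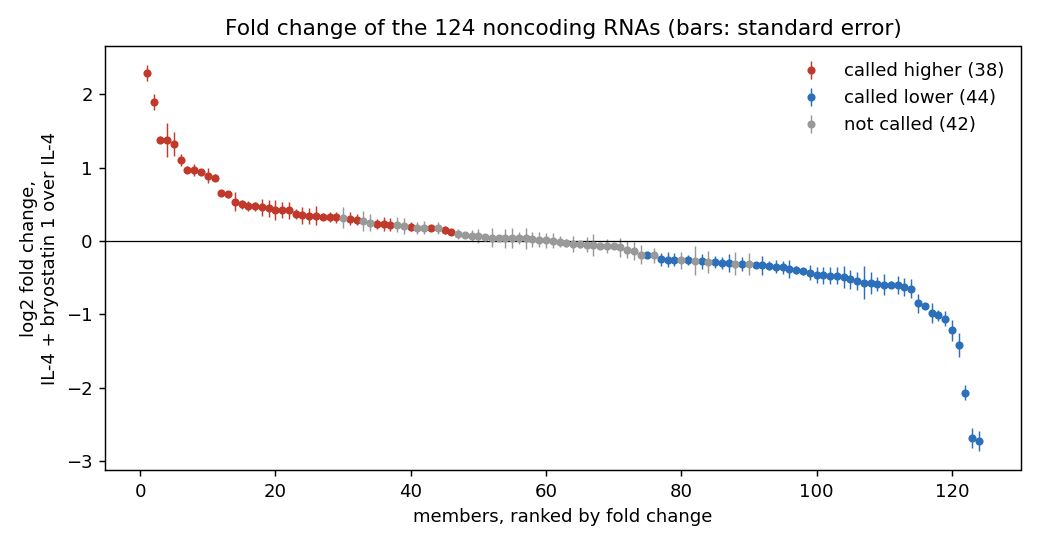
Log2 fold change (IL-4 + bryostatin 1 over IL-4) of the 124 noncoding RNAs in rank order, with standard errors as bars and the call as colour. The values run between -2.72 and 2.29, with 38 genes called higher, 44 called lower and 42 not called.

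Not every member was a noncoding RNA by its counts. A group of 11 members were models that span coding genes, either named as readthrough transcripts or sharing at least 70% of their exon bases with coding genes on the same strand, apart from Gm45928, which was added after its counts were seen because it spans Clcf1 and Pold4. The coding gene also had to be counted as coding above a low minimum. Rpph1, which shares 73.0% of its exon bases with Ccnb1ip1 on the same strand, was left out by this condition. Gm20716 spans Adnp and Dpm1 and had a mean count of 4103, against 4181 for these 2 genes together. Gm20605, over Lrch4 and Sap25, had 2288 against 2281, and Atrip-trex1 had 967.5 against 970.0 for Atrip and Trex1. Its count was thus 99.7% of the sum of the genes it spans, and that share lay between 97.7% and 100.3% in 6 of the 11, which also included Gm28043, Gm44502 and Gm28042. It was 86.9% in Gm45928, 64.9% in Gm38431, 61.6% in Gm48551, 44.4% in Gm44505 and 43.1% in Ipo11-lrrc70. For Gm44505 the genes summed were set by hand to Cntf and Zfp91, without Lpxn, which its span also overlaps. Counts of these 6 models and of their coding genes are therefore not separate measurements. In the other models reads may be shared in part, and how far was not tested. Gm44505 had a log2 fold change of 0.06, beside -0.16 for Zfp91. Gm45928 had 71.5, 79.2 and 72.1 CPM with bryostatin 1 and 136, 141 and 136 CPM with IL-4 alone. Its log2 fold change was -0.89 ± 0.0427 (SE), beside -0.88 for Pold4, a subunit of DNA polymerase delta, and -1.48 for Clcf1. Gm20605 had a log2 fold change of -0.59, beside -0.56 for Lrch4 and -0.81 for Sap25. Of the 11 models, 1 was called higher and 6 lower. Without them, 37 of 113 members were called higher and 38 lower, with a median log2 fold change of 0.01.

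**Figure D2:**
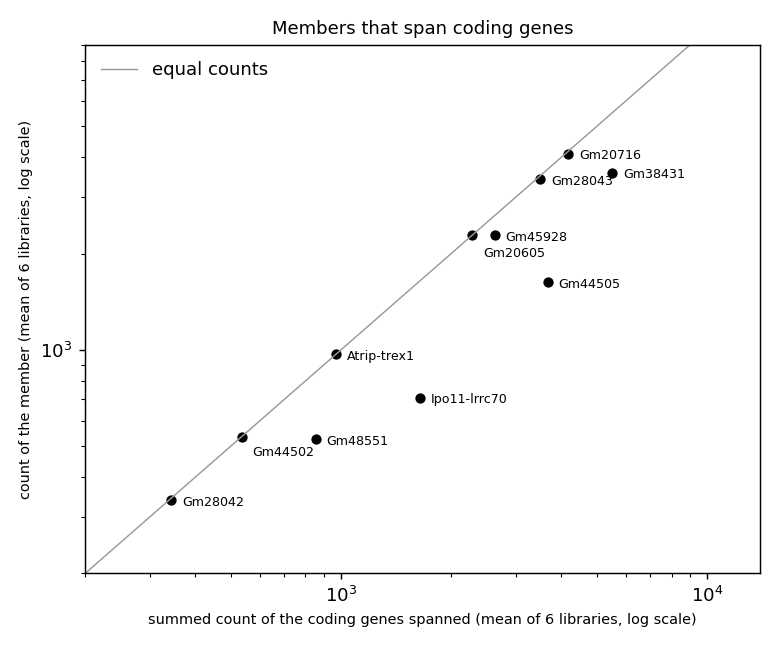
Mean count of each of the 11 members that span coding genes (vertical, log scale) against the summed mean count of the coding genes spanned (horizontal, log scale). Gm20716, Gm28043, Gm20605, Atrip-trex1, Gm44502 and Gm28042 lie on the line of equal counts, with shares between 97.7% and 100.3%.

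The largest group with a common function was that of the snoRNA hosts, and its calls among the members were all rises. A snoRNA gene lies inside the span of 18 members in the RefSeq gene table. Of these 18, 11 were called higher, 0 lower and 7 were not called, with a median log2 fold change of 0.29. The 14 of them on a list of host genes by name gave 8 higher, 0 lower and a median of 0.22, and the list was drawn up with earlier results of these data known. On the whole list 19 genes could be tested, with 8 called higher, 1 lower and 10 not called, and a median of 0.17. The one called lower was Snhg18, below the count minimum, at 0.671, 0.499 and 0.647 CPM with bryostatin 1 and 1.07, 0.946 and 0.912 CPM with IL-4 alone (log2 fold change -0.67, adjusted p = 0.0452, edgeR). Per direction, 30.1% of all genes tested and 33.1% of those with a mean of at least 100 counts were called higher.

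Transcripts of many snoRNA hosts, like those of ribosomal protein genes, begin with a run of pyrimidines, the 5′ terminal oligopyrimidine tract, which ties translation of the RNA to growth signals. The first bases of these hosts are shown for that reason, as 30 bases that hold 10 before and 20 from the annotated start, 5′ to 3′, from RefSeq promoters on GRCm38.p6. Where a gene has several annotated starts, a start with a pyrimidine run is shown. Capitals mark the longest run of at least 5 C or T that touches the 5 bases on either side of the start.
2410006H16Rik (chr11:62602867-62602896, plus strand): cgccgTCTTTCTCTgcggccatcatgggat
Snhg12 (chr4:132308668-132308697, plus strand): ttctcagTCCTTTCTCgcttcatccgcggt
Snhg1 (chr19:8723477-8723506, plus strand): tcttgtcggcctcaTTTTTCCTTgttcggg
Snhg8 (chr3:123508317-123508346, minus strand): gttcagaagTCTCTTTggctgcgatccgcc
Gas5 (chr1:161035156-161035185, plus strand): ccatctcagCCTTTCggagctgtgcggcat
Snhg7 (chr2:26640225-26640254, minus strand): gatgctcggCCTCTCggcagccatggcggc
1110038B12Rik (chr17:34952449-34952478, minus strand): gcacacgggTCTCTTTgtgcacccgcccac
Zfas1 (chr2:167062924-167062953, plus strand): tgcgccccgggcggccgcaggtctcggctg
Snhg5 (chr9:88522878-88522907, minus strand): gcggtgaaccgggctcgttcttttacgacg
Such a run was present in 11 of the 15 hosts with a promoter in the table, a share of 73.3%, against 34.7% of the 101 members with a promoter and 35.1% of 27025 genes in all. Zfas1 and Snhg5, shown last, have none by this rule although both were called higher, and Snhg7, Snhg3 and 2700038G22Rik have one and were not called. The rule for the run was set after these sequences were seen, and a match is a description of the letters at the annotated start, which can lie some bases away from the start used in B cells.

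Snhg6, host of Snord87, had 79.7, 87.5 and 75.9 CPM with bryostatin 1 and 42.4, 40.3 and 41.1 CPM with IL-4 alone. All 3 samples with bryostatin 1 lay far above all 3 without, and the log2 fold change was 0.97 ± 0.0519 (SE, adjusted p = 2.1e-11, edgeR). 2410006H16Rik, which spans Snord49a, Snord49b and Snord65, had 150, 142 and 147 CPM with bryostatin 1 and 77.4, 73.4 and 78.5 CPM with IL-4 alone. The groups were separate and each was tight, with a log2 fold change of 0.94 ± 0.0396 (adjusted p = 8.2e-13, edgeR). Snhg12, which spans Snora16a, Snora44, Snora61 and Snord99, had 58.8, 56.5 and 54.4 CPM with bryostatin 1 against 31.4, 29.8 and 32.3 CPM with IL-4 alone, a log2 fold change of 0.86 ± 0.0509.

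Zfas1, host of Snord12 and of other box C/D snoRNAs, rose less, to 114, 108 and 110 CPM with bryostatin 1, against 74.1, 67.4 and 70.5 CPM with IL-4 alone (log2 fold change 0.65 ± 0.0427). Snhg1, with 8 snoRNA genes inside its span, had 132, 120 and 126 CPM with bryostatin 1 and 85.8, 76.2 and 80.9 CPM with IL-4 alone, a log2 fold change of 0.64 ± 0.0468. Its neighbour Slc3a2, which encodes the heavy chain of amino acid transporters, had a log2 fold change of 1.19. Snhg5 (0.47), AI506816 (0.50), 1110038B12Rik (0.33) and Snhg17 (0.33) were called higher by smaller log2 fold changes, with no overlap between the groups. AI506816 and 2700038G22Rik have closely similar bases at their annotated starts, and how reads of near copies were counted is not stated, so that the values of both are uncertain.

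Gas5, a host of many snoRNAs named for its accumulation in arrested cells, had 271, 235 and 237 CPM with bryostatin 1 against 235, 213 and 221 CPM with IL-4 alone. The groups overlapped, and its log2 fold change of 0.15 ± 0.0501 passed the test (adjusted p = 0.0157, edgeR) but not without IL-4 + bryostatin 1 replicate 1 (log2 fold change 0.08, adjusted p = 0.152) or without IL-4 replicate 2 (0.11, adjusted p = 0.123). Snhg8 had a log2 fold change of 0.19 (adjusted p = 0.0146), which also missed the threshold without either of these libraries, at 0.17 (adjusted p = 0.0537) without IL-4 + bryostatin 1 replicate 1 and 0.16 (adjusted p = 0.0709) without IL-4 replicate 2. The 7 hosts not called were Snhg3 (-0.01), Snhg4 (0.18), Snhg7 (0.25), Snhg15 (0.10), Snhg16 (0.04), Epb41l4aos (0.17) and 2700038G22Rik (-0.04), with log2 fold changes in parentheses. Without IL-4 replicate 1, Snhg4 was called (0.27, adjusted p = 0.0166, edgeR). Snhg15, whose transcript is known to be short-lived, had 76.5, 96.6 and 96.8 CPM with bryostatin 1 and 84.8, 82.6 and 84.1 CPM with IL-4 alone. Replicate 1 with bryostatin 1 was the lowest of the 6 and the other two were the highest, and without it the log2 fold change of Snhg15 was 0.20 (adjusted p = 0.00067, edgeR).

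**Figure D3:**
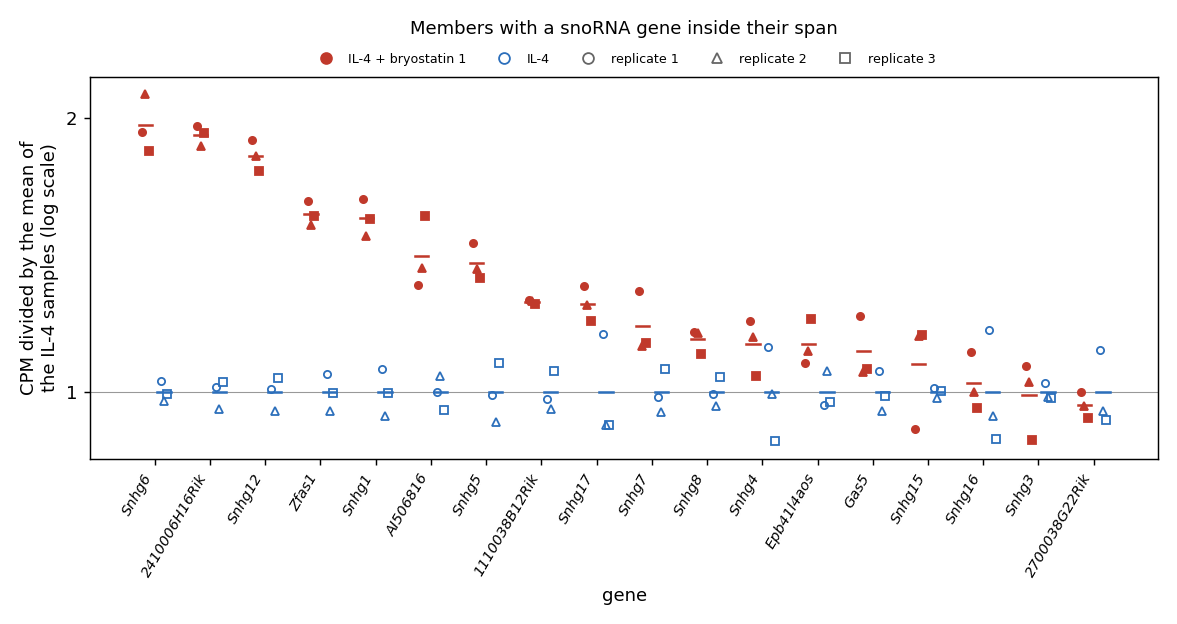
CPM of the 18 members with a snoRNA gene inside, each sample divided by the mean of the IL-4 samples (log scale), with bryostatin 1 filled and left, IL-4 open and right, marker shape for the replicate and bars for means. Snhg6, 2410006H16Rik and Snhg12 stand far above 1 with bryostatin 1, while Snhg15, Snhg16, Snhg3 and 2700038G22Rik scatter about it.

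Many genes for proteins that bind snoRNAs or trim nuclear RNAs were also called higher. Of 22 coding genes for snoRNP and nuclear exosome proteins, 16 were called higher, 0 lower and 6 were not called, beside 33.1% called higher and 31.7% lower among tested genes with a mean of at least 100 counts, and the median log2 fold change was 0.17. Fbl (-0.04), the methyltransferase of box C/D particles, and the exosome subunit Exosc6 (-0.11) were among the 6. Nhp2, a core protein of box H/ACA particles, had 179, 186 and 188 CPM with bryostatin 1 and 142, 137 and 145 CPM with IL-4 alone (log2 fold change 0.38), and Nop56, a core protein of box C/D particles, had a log2 fold change of 0.30. Spliced transcripts of snoRNA hosts are also known targets of nonsense-mediated decay. Of 14 coding genes for factors of that pathway, 1 was called higher, 5 lower and 8 were not called, against the same shares, with a median of -0.07. Upf3b, which links the pathway to exon junctions, had 45.9, 43.5 and 47.3 CPM with bryostatin 1 against 79.3, 84.7 and 80.2 CPM with IL-4 alone (log2 fold change -0.84), and Smg1, the kinase of the pathway, had a log2 fold change of -0.34. Upf1 (-0.07) and Upf2 (0.00) were among those not called, and Rbm8a (0.21) was the one called higher. Decay of the host transcripts was not tested.

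Of the 3 members on a list of microRNA hosts, Mir155hg rose, Ftx fell and Mir17hg did not pass the test. By span, 5 members that are no readthrough models hold a microRNA gene, with 1 called higher and 2 lower. Besides the 3 on the list they are Gm15987 with Mir7649 (log2 fold change -2.07, called lower) and Snhg4 with Mir1949 (0.18, not called). Mir155hg, also known as BIC, is the source of miR-155, which is induced in activated B cells and needed for a normal germinal centre response. Mir17hg is the source of the miR-17-92 cluster, which supports B cell survival and proliferation. The mature strands mostly used from both are shown 5′ to 3′ with the seed, bases 2 to 8, in capitals, since the seed decides which messenger RNAs a microRNA binds (RefSeq, GRCm38.p6).
mmu-miR-155-5p (Mir155hg, chr16:84714143-84714165, plus strand): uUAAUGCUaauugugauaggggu
mmu-miR-17-5p (Mir17hg, chr14:115043684-115043706, plus strand): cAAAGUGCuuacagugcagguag
mmu-miR-20a-5p (Mir17hg, chr14:115044183-115044205, plus strand): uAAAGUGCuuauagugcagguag
mmu-miR-18a-5p (Mir17hg, chr14:115043867-115043889, plus strand): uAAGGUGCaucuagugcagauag
mmu-miR-19a-3p (Mir17hg, chr14:115044048-115044070, plus strand): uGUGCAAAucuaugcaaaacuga
mmu-miR-19b-3p (Mir17hg, chr14:115044358-115044380, plus strand): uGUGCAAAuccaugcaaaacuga
mmu-miR-92a-3p (Mir17hg, chr14:115044476-115044496, plus strand): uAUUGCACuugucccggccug
miR-17-5p and miR-20a-5p share a seed, as do miR-19a-3p and miR-19b-3p, and miR-155 shares its seed with none of them. In the gene table Mir92-1 alone lies inside the span of Mir17hg, so that most of its annotated span lies after the cluster. Mature microRNAs were not measured here.

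Mir155hg had 15.8, 14.1 and 10.6 CPM with bryostatin 1 and 7.19, 5.16 and 3.97 CPM with IL-4 alone. The spread within each group was wide, but the lowest sample with bryostatin 1 was above the highest without, and the log2 fold change was 1.32 ± 0.165 (adjusted p = 2e-06, edgeR). Its nearest coding gene, Mrpl39, a mitochondrial ribosomal protein, had a log2 fold change of -0.01. Mir17hg had 13.6, 9.74 and 8.22 CPM with bryostatin 1 and 16.6, 12.2 and 10.8 CPM with IL-4 alone. These groups overlapped, with a log2 fold change of -0.31 ± 0.157 (adjusted p = 0.103, edgeR). Mir17hg was called without IL-4 + bryostatin 1 replicate 1 (-0.56, adjusted p = 0.00332) and without IL-4 replicate 3 (-0.44, adjusted p = 0.0208), as well as with no filter on low counts (-0.30, adjusted p = 0.00287). With the replicate number as a block in edgeR it was called too (-0.33, adjusted p = 0.00122), though the labels do not say whether samples are paired. Ftx, a noncoding gene of the X inactivation centre that holds Mir374b, Mir374c and Mir421, had 15.7, 13.0 and 14.5 CPM with bryostatin 1 against 19.1, 17.8 and 16.3 CPM with IL-4 alone (log2 fold change -0.29). Among 13 coding genes for microRNA processing, 5 were called higher, 2 lower and 6 were not called, beside 30.1% higher and 28.0% lower of all genes tested. The rises were led by Ago4 (0.86) and Ago2 (0.67), Argonaute proteins that carry the mature strand.

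Most of the listed RNAs that act in the nucleus or on chromatin were called lower. Of the 10 members on a list of nuclear body and chromatin RNAs, 7 were called lower, namely Neat1, Malat1, Xist, Ftx, Tug1, Kcnq1ot1 and Peg13, and 1 higher, Pvt1, while Norad and Oip5os1 were not called. Over all genes tested, 28.0% were called lower, and 31.7% of those with a mean of at least 100 counts. The median log2 fold change of the 10 was -0.32. On the whole list, 13 genes could be tested, of which 1 was called higher and 8 lower. The list was drawn up with earlier results known.

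Neat1, the scaffold of paraspeckles, had 14.9, 10.6 and 10.9 CPM with bryostatin 1 and 26.6, 21.3 and 18.4 CPM with IL-4 alone. The groups did not overlap, and the log2 fold change was -0.85 ± 0.126 (adjusted p = 1.5e-05, edgeR). Malat1, a transcript of nuclear speckles from the same region of chromosome 19, had 51.8, 35.9 and 43.1 CPM with bryostatin 1 and 83.5, 53.9 and 48.1 CPM with IL-4 alone. Here the groups overlapped and IL-4 replicate 1 stood apart. The log2 fold change of Malat1 was -0.49 ± 0.148 (adjusted p = 0.00874, edgeR), and it was -0.22 (adjusted p = 0.0635) without that library and -0.37 (adjusted p = 0.0615) without IL-4 + bryostatin 1 replicate 2. Neat1 without IL-4 replicate 1 still had a log2 fold change of -0.70 (adjusted p = 3.1e-05). Of 15 coding genes for proteins of paraspeckles or partners of Xist, 2 were called higher, Nono and Matr3, and 6 lower, with a median of 0.01.

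Xist, which coats the inactive X chromosome, had 691, 605 and 612 CPM with bryostatin 1 and 896, 801 and 713 CPM with IL-4 alone (log2 fold change -0.34 ± 0.0641, adjusted p = 0.00021, edgeR). The groups were separate, though the gap between the nearest samples was small. The Y-linked genes Ddx3y, Uty, Kdm5d and Eif2s3y had 0 counts in every library. Tug1, a widely expressed RNA found in nucleus and cytoplasm, fell to 91.9, 91.9 and 85.3 CPM with bryostatin 1, against 111, 112 and 115 CPM with IL-4 alone. Its log2 fold change of -0.32 ± 0.0402 rested on tight groups. Kcnq1ot1, an imprinted antisense RNA that silences its neighbours in cis, had a log2 fold change of -0.31 (adjusted p = 0.00941), which missed the threshold without IL-4 + bryostatin 1 replicate 2 (-0.24, adjusted p = 0.0563). Peg13, imprinted and expressed from the paternal allele inside Trappc9, had 5.48, 5.39 and 6.003 CPM with bryostatin 1 and 7.19, 7.99 and 8.08 CPM with IL-4 alone (log2 fold change -0.46), and Trappc9 itself had -0.35. Chaserr, which in mice restrains its neighbour Chd2, had a log2 fold change of -0.26, beside -0.17 for Chd2. Norad, a cytoplasmic RNA that binds Pumilio proteins, had 176, 174 and 170 CPM with bryostatin 1 and 173, 186 and 188 CPM with IL-4 alone, with log2 fold change -0.07 ± 0.0383 (adjusted p = 0.116, edgeR), and without IL-4 replicate 1 it was called (-0.11, adjusted p = 0.0129). Oip5os1, known as Cyrano, which directs the destruction of miR-7, had a log2 fold change of -0.05 ± 0.0454 (adjusted p = 0.395, edgeR).

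The 3 members on a list of structured small RNAs and RNA enzymes were all lower by mean, and 2 of them were called. These 3 are made by RNA polymerase III and carry no poly(A) tail. Other members were not sorted by polymerase, and Bc1, which is not on that list, was called higher (log2 fold change 1.37). Rn7sk, which holds the elongation factor P-TEFb inactive, had 11.6, 9.74 and 8.45 CPM with bryostatin 1 and 19.1, 14.4 and 11.9 CPM with IL-4 alone. Its log2 fold change was -0.59 ± 0.14 (adjusted p = 0.00145, edgeR), and -0.40 (adjusted p = 0.00847) without IL-4 replicate 1. Rpph1, the RNA of the tRNA-trimming enzyme RNase P, had 14.2, 14.2 and 14.5 CPM with bryostatin 1 and 23.8, 16.1 and 14.2 CPM with IL-4 alone. The 3 samples with bryostatin 1 were alike and the groups overlapped, so that the log2 fold change of -0.33 (adjusted p = 0.039) became -0.09 (adjusted p = 0.383) without IL-4 replicate 1. It also missed the threshold without any one of the 3 libraries with bryostatin 1, with adjusted p between 0.0699 and 0.0882 at log2 fold changes between -0.34 and -0.33. Rmrp, the RNA of RNase MRP, which cuts precursor ribosomal RNA, had 6.59, 6.09 and 5.77 CPM with bryostatin 1 and 9.87, 6.95 and 5.84 CPM with IL-4 alone (log2 fold change -0.29 ± 0.152, adjusted p = 0.115). It was called without IL-4 replicate 3 (-0.46, adjusted p = 0.00929) and with no filter on low counts (-0.28, adjusted p = 0.0394). About 44.1% of the exon bases of Rmrp lie opposite the coding gene Ccdc107, and 73.0% of those of Rpph1 are shared with Ccnb1ip1 on the same strand. The 3 RNAs together made up 32.4, 30.1 and 28.8 CPM with bryostatin 1 and 52.7, 37.5 and 31.9 CPM with IL-4 alone. IL-4 replicate 1 was the highest of all 6 libraries for Neat1, Malat1, Xist, Rn7sk, Rpph1, Rmrp, Ftx, Kcnq1ot1, Mir17hg and Chaserr, and replicate 1 was also the highest with bryostatin 1 for each of these except Rpph1. Whether RNA was selected by its poly(A) tail before library preparation is not stated in the labels, and the part of RNA without a tail in these values was not tested. Over all members, leaving out IL-4 replicate 1 gave 37 called higher and 39 lower.

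**Figure D4:**
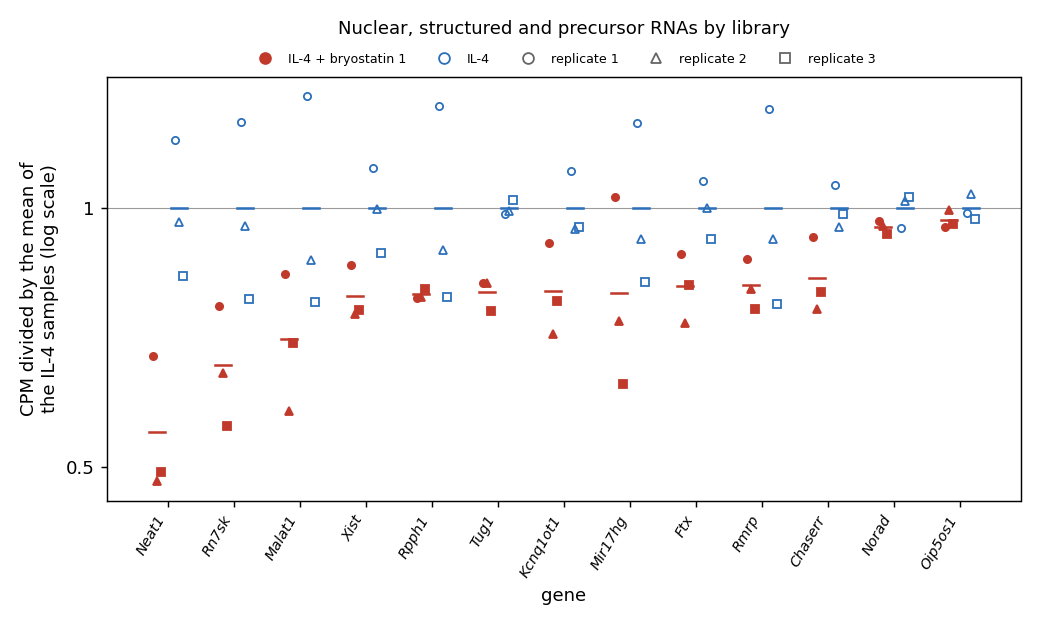
CPM of nuclear, structured and precursor RNAs and of the cytoplasmic Norad and Oip5os1, each sample divided by the mean of the IL-4 samples (log scale), with bryostatin 1 filled and left, IL-4 open and right, marker shape for the replicate and bars for means. Replicate 1 of IL-4 (open circle) is the highest sample for Neat1, Rn7sk, Malat1, Xist, Rpph1, Kcnq1ot1, Mir17hg, Ftx, Rmrp and Chaserr. The groups do not overlap in Neat1, Rn7sk, Xist, Tug1, Kcnq1ot1, Ftx and Chaserr.

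Among 10 members with reported immune roles, 5 were called higher (Mir155hg, Pvt1, Snhg12, Mirt1 and Gas5) and 3 lower (AW112010, Neat1 and Malat1), against 58.1% of all genes tested called, 30.1% higher and 28.0% lower. The whole list had 11 tested genes, with 5 called higher and 4 lower. AW112010, which in mouse macrophages is induced by inflammatory stimuli and translated from a noncanonical reading frame, had 12.1, 11.4 and 11.2 CPM with bryostatin 1 and 22.2, 24.8 and 23.2 CPM with IL-4 alone. The groups were tight and far apart, with a log2 fold change of -1.02 ± 0.0722 (adjusted p = 1.2e-09, edgeR). Pvt1, transcribed next to the proto-oncogene Myc, had 16.8, 15.2 and 16.7 CPM with bryostatin 1 and 8.31, 8.56 and 7.98 CPM with IL-4 alone, a log2 fold change of 0.97 ± 0.0804. Myc had 231, 223 and 210 CPM with bryostatin 1 against 190, 167 and 160 CPM with IL-4 alone, a log2 fold change of 0.36.

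The largest rises were in little-studied transcripts. 3300005D01Rik had 16.5, 18.4 and 18.2 CPM with bryostatin 1 and 3.55, 3.12 and 4.15 CPM with IL-4 alone. This was a 4.89-fold difference with no overlap, or 2.29 ± 0.105 on the log2 scale (adjusted p = 2.5e-12, edgeR). The nearest coding gene, Snx9, a sorting nexin of endocytosis, had 191, 206 and 198 CPM with bryostatin 1 and 71.8, 73.3 and 68.9 CPM with IL-4 alone (log2 fold change 1.48). Since this transcript had the largest rise, the 300 bases around its annotated start (250 before and 50 from it) are printed 5′ to 3′ from RefSeq, GRCm38.p6, plus strand, with matches to TGANTCA (the letters bound by AP-1 factors) and CACGTG (the canonical E-box) in capitals.
3300005D01Rik (chr17:5798407-5798706): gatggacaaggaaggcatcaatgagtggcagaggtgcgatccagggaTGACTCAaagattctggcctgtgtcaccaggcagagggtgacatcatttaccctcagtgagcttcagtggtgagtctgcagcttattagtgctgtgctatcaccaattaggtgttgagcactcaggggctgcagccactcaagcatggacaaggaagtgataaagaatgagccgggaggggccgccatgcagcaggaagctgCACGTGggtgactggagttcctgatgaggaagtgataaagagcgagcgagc
TGANTCA reads alike on both strands, as does CACGTG, and neither overlaps the other. The same window was also searched in C430002N11Rik and Mir155hg, which rose, and in Gm4610, which fell, and held neither. TGANTCA was found in 4 of 32 promoters of members called higher (12.5%), in 0 of 37 of members called lower and in 8.97% of 27025 genes, and CACGTG in 5 of 32, 0 of 37 and 8.09%. These matches are letters in a window and no evidence of binding.

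C430002N11Rik had 11.4, 13.4 and 12.2 CPM with bryostatin 1 and 3.40, 3.17 and 3.38 CPM with IL-4 alone, with log2 fold change 1.89 ± 0.11, and its nearest coding gene Zbtb38, a methyl-CpG binding repressor, had 0.63. AI504432 had 79.9, 76.2 and 80.1 CPM with bryostatin 1 and 30.04, 28.7 and 32.1 CPM with IL-4 alone, with log2 fold change 1.38 ± 0.0489. Kcna3, the neighbouring gene for the Kv1.3 potassium channel of lymphocytes, had 11.9, 11.3 and 14.0 CPM with bryostatin 1 and 5.06, 4.64 and 4.197 CPM with IL-4 alone, a log2 fold change of 1.42. Both genes of this pair thus differed by similar amounts with no overlap between the groups. 5430416N02Rik (1.10) and 1700001L05Rik (0.89) also had separate groups, with log2 fold changes in parentheses. Bc1, known as a translational repressor in rodent neurons, had 8.01, 4.94 and 10.99 CPM with bryostatin 1 and 3.35, 2.13 and 3.79 CPM with IL-4 alone. Its spread was the widest of the called rises by standard error (log2 fold change 1.37 ± 0.234, adjusted p = 6.9e-05, edgeR), and its sequence is shared with repeats of the genome, so that its counts are uncertain.

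The largest falls were steeper still. Gm4610 had 1.93, 2.10 and 2.08 CPM with bryostatin 1 and 11.96, 15.9 and 12.5 CPM with IL-4 alone. Samples with bryostatin 1 were all near 2 CPM, and the log2 fold change was -2.72 ± 0.138 (adjusted p = 1.1e-11, edgeR). Bcar3, the nearest coding gene and an adaptor protein in integrin signalling, had 74.1, 73.9 and 74.4 CPM with bryostatin 1 and 244, 245 and 223 CPM with IL-4 alone (log2 fold change -1.68). A430088P11Rik had 1.70, 1.90 and 1.71 CPM with bryostatin 1 and 12.4, 11.8 and 9.95 CPM with IL-4 alone, with log2 fold change -2.68 ± 0.135. It overlaps Fam83f, which had a log2 fold change of -1.59.

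Gm15987 had 3.28, 3.20 and 3.28 CPM with bryostatin 1 and 14.2, 14.0 and 12.8 CPM with IL-4 alone, a log2 fold change of -2.07 ± 0.103. The gene it overlaps, Clec2g, a C-type lectin, was at 0.552, 1.15 and 1.15 CPM with bryostatin 1 and 0.292, 0.520 and 0.228 CPM with IL-4 alone, the opposite direction, with log2 fold change 1.41. Gm6566 fell (log2 fold change -1.42 ± 0.162) while Gstz1, which it overlaps, rose (0.79). 9330151L19Rik had a log2 fold change of -1.22 and Dnaaf2, an assembly factor of ciliary dynein, one of -1.31. Of the exon bases of 9330151L19Rik, 43.5% lie opposite Dnaaf2, and its mean count was 104, against 1380 for Dnaaf2. The library kit marks strand, but whether counting used it is not stated, so reads of this pair cannot be told apart where the exons lie opposite each other. 6530402F18Rik (-1.06) overlaps Ntng2 (-1.12) in span and shares 10.1% of its exon bases with it on the same strand. Arhgap27os3 (-0.98) overlaps Arhgap27 (-0.76) in span, and no exon bases of it are shared with a coding gene on either strand in GENCODE. 2610507I01Rik (-0.65) and Gm37065 (-0.62) completed the largest falls, and Gm37065 overlaps Slamf6, which had a log2 fold change of 0.18.

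**Figure D5:**
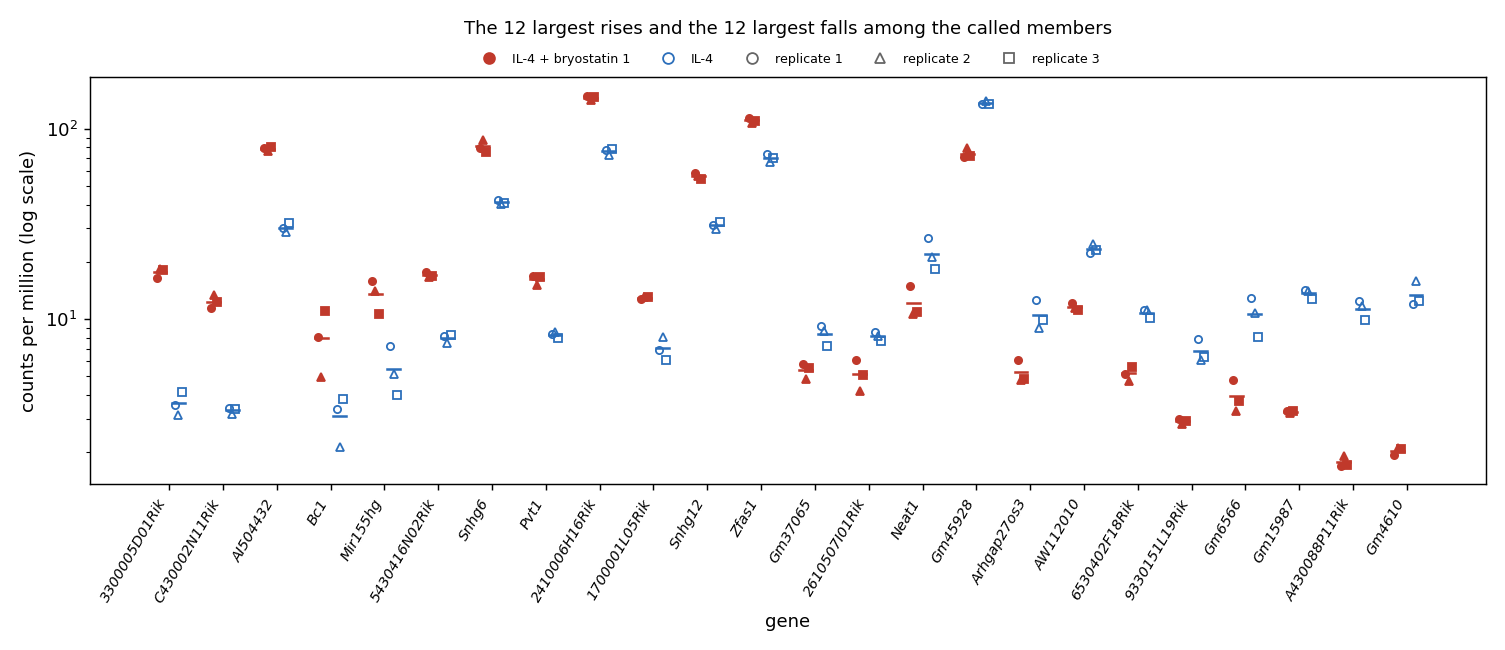
CPM in each sample (log scale) of the 12 called members with the largest rise and the 12 with the largest fall, with bryostatin 1 filled and left, IL-4 open and right, marker shape for the replicate and bars for means. Samples of the groups do not overlap in any of the 24 genes, and Bc1 and Mir155hg have the widest scatter among the rises.

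Taking the 113 members that are not readthrough models, each with its nearest tested coding gene, both were called in 48 pairs, in 32 of them in the same direction (66.7%) and in 16 in opposite directions. Of 3914 coding genes with a mean of at least 100 counts that were called together with their own nearest coding gene, 60.4% went the same way. Coding genes that are nearest to each other were counted once for each gene, so the shares are not built alike. The difference between these shares was not tested. Among pairs with both called, the spans overlapped in 19, of which 10 went the same way, and did not overlap in 29, of which 22 did. Lockd, which lies downstream of the cell cycle inhibitor gene Cdkn1b, fell (log2 fold change -0.29) where Cdkn1b rose (0.19).

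The other members with many counts and no assigned role changed by smaller amounts. AI662270 had 238, 242 and 237 CPM with bryostatin 1 and 218, 226 and 235 CPM with IL-4 alone, with log2 fold change 0.08 ± 0.0362 (adjusted p = 0.0687, edgeR), and it was called without IL-4 replicate 3 (0.10, adjusted p = 0.041). AU020206 had 240, 220 and 213 CPM with bryostatin 1 and 205, 193 and 198 CPM with IL-4 alone, with log2 fold change 0.18. Gm43305 was lower by more, with 114, 146 and 149 CPM with bryostatin 1 and 168, 218 and 225 CPM with IL-4 alone (log2 fold change -0.59), and replicate 1 was the lowest of each group. Gm42031 had 69.4, 65.1 and 29.8 CPM with bryostatin 1 and 95.5, 98.9 and 50.9 CPM with IL-4 alone. In both groups replicate 3 was the lowest by far, and the log2 fold change of -0.57 ± 0.226 (adjusted p = 0.039) came with overlapping groups. It was -0.27 (adjusted p = 0.206) without IL-4 + bryostatin 1 replicate 3, -0.45 (adjusted p = 0.121) without IL-4 replicate 1 and -0.42 (adjusted p = 0.194) without IL-4 replicate 2. Of the 9 members with a symbol for an opposite-strand transcript, 1 was called higher, 1 lower (Arhgap27os3) and 7 were not called. These calls were 22.2% of the 9, beside 58.1% of all genes tested and 64.8% of those with a mean of at least 100 counts. The one called higher, Brip1os (log2 fold change 0.13), missed the threshold without IL-4 replicate 1 (0.09, adjusted p = 0.0694) and without IL-4 + bryostatin 1 replicate 2 (0.11, adjusted p = 0.0621).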

How the data were processed

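Adaptors were removed with cutadapt and reads trimmed with sickle, mapped with HISAT2, sorted with SAMtools and counted with featureCounts by the authors. Neither the labels nor the methods state versions, the genome build or the strand setting. The deposited table holds whole-number counts per RefSeq transcript, and columns of the authors' own comparison (mean level, log ratio, p-value, q-value, rank and call), which were not used. The row with the highest mean count stood for each gene. Genes kept by filterByExpr (minimum count 10, minimum total 15) were tested in edgeR 4.0.16 (R 4.3.3) by its quasi-likelihood method, without covariates, on 4 residual degrees of freedom. DEGES factors were rebuilt in 3 rounds (removal at a false discovery rate of 0.1, floor 5%). The standard error was the log2 fold change over the square root of F. DESeq2 1.42.0 was an alternative. The test was checked on simulated counts. Positions and overlaps came from the RefSeq gene table of GRCm38.p6, in which all 124 members matched, and GENCODE exons, in which 108 did.

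The named members are the 12 with the highest mean CPM, the 12 largest called rises and falls, members on a gene list, and genes overlapping or next to these. Others, as Gm42031, Lockd, Chaserr, Brip1os and the snoRNA hosts found by span alone, were chosen after their values were seen. Members and lists were chosen with earlier results of these data known.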

Additional observations from a re-analysis of the deposited data

How the results depend on the processing

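Over 13 alternatives, 67 named members gave 871 values, of which 825 kept direction and side of the threshold, 31 missed the threshold, 15 newly passed it and 0 reversed. Requiring a log2 fold change past 1 left 6 members called higher and 7 lower, and members that overlap no other gene (51) gave 17 higher and 16 lower. A minimum mean of 200 counts (68 members) gave 24 lower, and 1 of 50 counts (201 members) gave 67 lower, since fewer or more genes are counted. Summing counts over rows lost Malat1 (adjusted p = 0.0749), Rpph1 (0.145) and Kcnq1ot1 (0.0508). DESeq2 gave 32 higher and 37 lower, and lost Malat1 (adjusted p = 0.142) and Rpph1 (adjusted p = 0.214). Leaving out each replicate in turn gave 31 to 37 higher, 37 to 44 lower and a median of -0.05 to -0.02. Scaling by total counts gave 43 higher, 39 lower and a median of 0.01. The replicate block gave 40 higher and 48 lower. Same-numbered samples correlated at 0.168, 0.074 and -0.006, and samples with different numbers at values between -0.132 and 0.069. The labels do not say whether equal numbers mark pairs. The main fit was therefore unpaired, and whether the samples are paired was not settled. Of the named members, the block newly called Mir17hg (log2 fold change -0.33, adjusted p = 0.00122, edgeR), Rmrp, Snhg4 and AI662270. With about 100 counts in a member, the depth limits which small changes can pass.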

Other observations

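Noncoding genes of the same kind below the count minimum were called less often by share: of 357 that passed the filter on low counts, 68 were called higher and 67 lower (37.8%), with a median log2 fold change of -0.05. They are counted less deeply, and the difference in share was not tested. Morrbid, which in mouse myeloid cells represses the adjacent pro-apoptotic gene Bcl2l11, had 0.868, 1.10 and 1.15 CPM with bryostatin 1 and 2.72, 3.22 and 2.42 CPM with IL-4 alone (log2 fold change -1.43 ± 0.205, adjusted p = 1.1e-05, edgeR). Bcl2l11 itself had 118, 118 and 120 CPM with bryostatin 1 against 29.99, 33.2 and 31.9 CPM with IL-4 alone, a log2 fold change of 1.90. Among microRNA hosts of this low range, Mir22hg was called higher (0.80) and Dleu2, host of the miR-15a and miR-16-1 pair, lower (-0.54). Rn7s2, an RNA of the signal recognition particle, was called lower (-0.64), with IL-4 replicate 1 again the highest library at 6.08 CPM. These genes were picked with their values in view.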
